A study of Rattus norvegicus with 13 samples.

Results

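The miR-34 and miR-449 family is a group of small regulatory RNAs. Those from the 5′ side of their precursors, named 5p, share a seed, the stretch near the 5′ end by which a miRNA recognises its target mRNAs. Here the family comprised the 6 rat miRNAs rno-miR-34a-5p, rno-miR-34b-5p, rno-miR-34b-3p, rno-miR-34c-5p, rno-miR-34c-3p and rno-miR-449a-5p, written without the species prefix from here on. They were taken by name from the 460 rat miRNAs of a small RNA read count table, and all 6 were abundant enough to be tested. The libraries came from whole kidneys of 13 female rats of the inbred strain WAG/RijCmcr, a Wistar line, aged 11 to 12 weeks and weighing about 155 g at irradiation. Control rats (n = 4) received 0 Gy. Irradiated rats (n = 4) received 13 Gy of X-rays at 320 kVp and 1.75 Gy per minute to the whole body except a single hind limb, which was kept outside the field. The third group (n = 5) received the same irradiation and, from day 7, lisinopril in the drinking water at about 24 mg per square metre per day. Lisinopril inhibits angiotensin converting enzyme. Saline at 40 ml per kg per day on days 3 to 7 and enrofloxacin, an antibiotic, at 10 mg per kg per day up to day 14 were given as supportive care. The labels do not say whether the controls received them. All kidneys were taken on day 35. miR-34a is the member that the study's title singles out.

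The p53 protein, which is stabilised by DNA damage, binds the promoters of the Mir34a gene and of the shared Mir34b and Mir34c transcript and activates them. Mature miR-34 represses mRNAs of cell cycle and survival genes such as Cdk6, Ccnd1, Met and Bcl2, and of the deacetylase Sirt1, which itself acts on p53. Each hairpin precursor is cut into a 5p and a 3p strand, of which usually a single strand is loaded into Argonaute and kept. miR-34b, miR-34c and miR-449 are best known from multiciliated epithelia and from testis, whereas miR-34a is made in many tissues.

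The sequences show which members can act on the same targets, and are given as RefSeq has them (build GRCr8), with seed bases 2 to 8 in capitals. The following 4 share the seed GGCAGUG.
miR-34a-5p: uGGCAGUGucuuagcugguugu
miR-34b-5p: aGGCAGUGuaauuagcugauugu
miR-34c-5p: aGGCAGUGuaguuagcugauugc
miR-449a-5p: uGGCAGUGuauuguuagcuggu
The opposite arms of the 34b and 34c hairpins form a second seed group, AUCACUA.
miR-34b-3p: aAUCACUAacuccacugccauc
miR-34c-3p: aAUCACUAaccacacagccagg
All 6 names matched the RefSeq table. Of its 693 mature rat miRNA names, 5 carry the first seed and 2 the second. The fifth carrier of the first seed, miR-449c-5p, was not analysed here, nor was the 3p arm of Mir34a or of Mir449a.

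The closest relatives are miR-34b-5p and miR-34c-5p, which differ at 2 of 23 positions counted from the 5′ end, A11G and U23C in the order 34b to 34c. Against miR-34c-5p, miR-34a-5p differs at 11 of the 22 positions they share. The pair miR-34b-3p and miR-34c-3p differs at 5 of 22. The authors' handling of reads that fit more than a single miRNA was not given in the sources used here, so the division of reads between miR-34b-5p and miR-34c-5p is reported as uncertain. The sum of these 2 miRNAs does not depend on how shared reads were divided, but would change if such reads were dropped or counted more than once.

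Mir34a lies on the plus strand at chr5:165815952-165816053 of GRCr8, inside the long noncoding gene LOC103692514. Mir34c (chr8:60306091-60306167) and Mir34b (chr8:60306609-60306692) lie next to each other on the minus strand and overlap the protein-coding gene Hoatz. Mir449a lies on the plus strand at chr2:46403910-46404000, beside Mir449c and within the long noncoding gene LOC134485839. The nearest genes outside this one are LOC134485840, 3.88 kb from Mir449c, and the protein-coding Gpx8, 5.65 kb from Mir449a. Mcidas, a regulator of multiciliated cell formation, stands farther off, 24.6 kb from Mir449c. The counts carry no positions, and these places serve as annotation only. The hairpins of the cluster are printed because their arms are compared later, with the 5p and the 3p strand in capitals.
Mir34b: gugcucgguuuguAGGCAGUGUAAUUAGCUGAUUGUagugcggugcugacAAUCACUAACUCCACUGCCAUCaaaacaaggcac
Mir34c: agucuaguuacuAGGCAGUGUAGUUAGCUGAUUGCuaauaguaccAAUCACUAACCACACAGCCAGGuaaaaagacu

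Rat miRNA counts per library ranged from 1194175 to 11095939. Levels are given in CPM, the counts of a miRNA divided by the library size in units of 1e+06 reads, with that size scaled by TMM, edgeR's correction for composition. Control library 2 was by far the shallowest, and 3 counts, taken as the lowest detectable level, stood for 3.19 CPM in it, against 0.289 to 0.561 CPM in the other libraries. These floors cover counting error only. All 9 listed miRNAs of kidney epithelium, such as miR-192-5p and miR-10a-5p, were present in every library, with summed levels of 432134 to 743172 CPM in control, 351646 to 484444 CPM in irradiated and 447793 to 578159 CPM in lisinopril libraries. The 5 leukocyte miRNAs summed to 676 to 1014, 817 to 1260 and 660.1 to 1423 CPM, and the 3 erythroid miRNAs to 917 to 2092, 790 to 4202 and 673 to 3469 CPM. miR-1-3p and miR-133a-3p of muscle summed to 29.4 to 39.7, 29.0 to 43.1 and 23.5 to 38.9 CPM. The neural and adrenal miRNAs miR-7a-5p and miR-9a-5p summed to 259 to 341, 204 to 443 and 354 to 494 CPM, so that the lisinopril libraries lay above the controls. Pancreatic miR-217-5p stayed at or under 1.36 CPM, and miR-122-5p of liver, miR-124-3p, miR-206-3p and miR-216a-5p were not analysed here. The part of these other cell types in the results was not tested.

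In irradiated kidneys miR-34a-5p rose 5.82-fold over control. miR-34c-5p, from the Mir34b and Mir34c cluster, rose 1.49-fold, a call that was lost in 7 of 18 alternative analyses. No other member passed the test. In the lisinopril group miR-34a-5p rose 5.98-fold over the same controls. Between irradiated kidneys with and without the drug no member passed the test. In control kidneys miR-34c-5p had the most reads of the members, and miR-34a-5p stood at 0.265 times its count by the mean ratio. After irradiation the pair stood at similar counts.

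miR-34a-5p was at 51.6, 50.0, 53.7 and 54.4 CPM in control libraries 1 to 4. In irradiated libraries 1 to 4 it was at 303, 256, 318 and 348 CPM, and in lisinopril libraries 1 to 5 at 236, 314, 326, 339 and 356 CPM. The controls spanned 50.0 to 54.4 CPM, all 9 irradiated libraries lay far above them, and the range without the drug lay inside the range with it. Group means were 52.4 ± 2.00 (SD, n = 4), 306 ± 38.5 (SD, n = 4) and 314 ± 46.4 CPM (SD, n = 5). Among the 460 rat miRNAs, ordered by abundance, miR-34a-5p moved from places 172 to 177 in the controls to places 90 to 104 in irradiated and 90 to 107 in lisinopril libraries. Because whole kidney was sequenced, more RNA per cell and more cells that make it cannot be told apart.

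**Figure D1:**
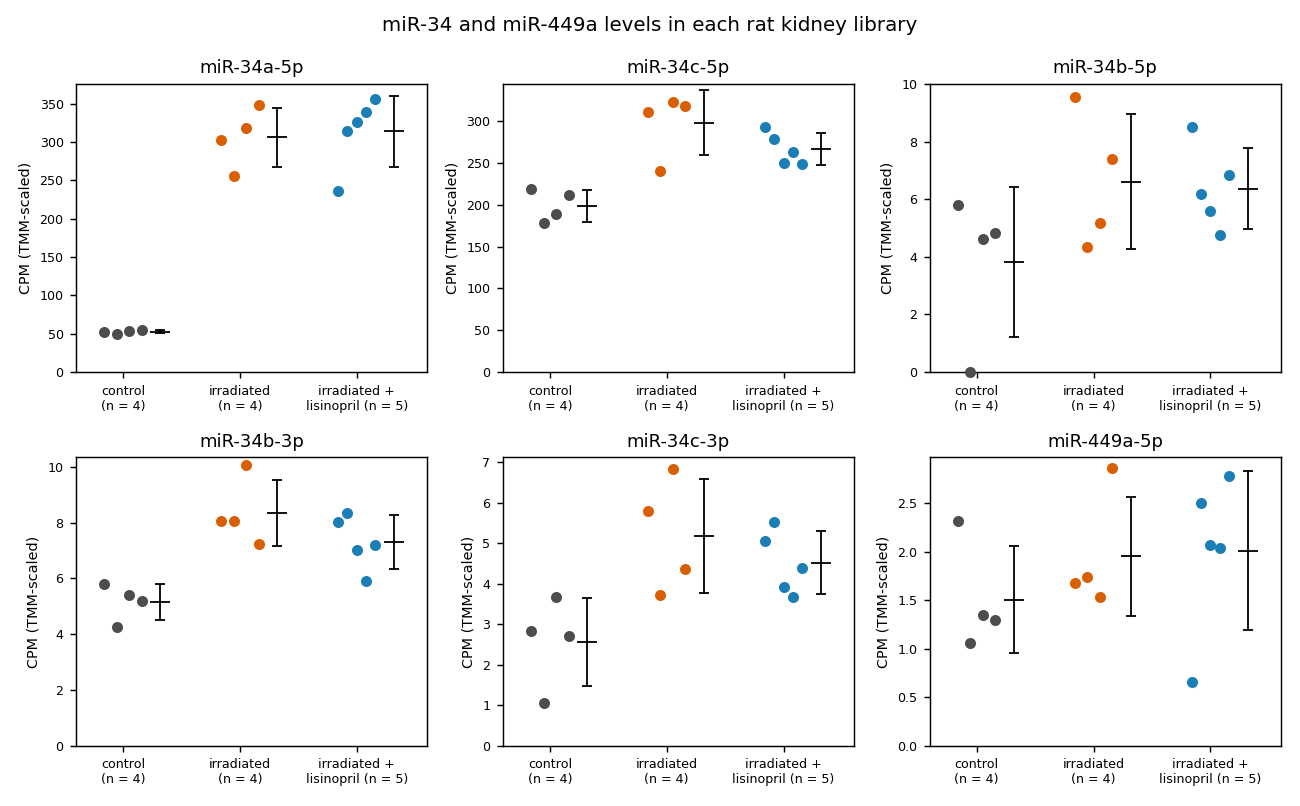
CPM of each of the 6 miRNAs (vertical axes, each from 0) in every library (points), by group, with the group mean ± SD as a bar beside the points. miR-34a-5p is at most 54.4 CPM in the controls and at least 236 CPM in the irradiated libraries, while the groups overlap for miR-34b-5p and miR-449a-5p.

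edgeR's quasi-likelihood test, fitted to all 13 libraries and adjusted by Benjamini-Hochberg over the 419 rat miRNAs that passed its abundance filter, called 2 of the 6 members higher after irradiation than in the controls and 0 lower. Over all miRNAs tested it called 0.477% higher and 1.19% lower. On the log2 scale miR-34a-5p rose by 2.54 ± 0.149 (standard error, adjusted p = 1.44e-08), with a 95% interval of 4.67-fold to 7.25-fold. This was the highest log2 fold change and the smallest p among the 419. Its adjusted p stayed under the threshold of 0.05 in all 18 alternative analyses, with log2 fold changes from 2.49 to 2.77. When libraries were scaled by their totals alone, the median over all miRNAs rose to 0.26, from 0.02 with TMM, and the value for miR-34a-5p was 2.77.

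miR-34c-5p was at 218, 178, 189 and 211 CPM in control libraries 1 to 4 and at 311, 240.3, 323 and 319 CPM in irradiated libraries 1 to 4. In lisinopril libraries 1 to 5 it was at 293, 279, 250.4, 263 and 249 CPM. Every irradiated library, with or without the drug, lay above every control, and irradiated library 2 lay well below the other 3 of its group. The means were 199 ± 19.1, 298 ± 38.8 and 267 ± 19.1 CPM (SD, n = 4, 4 and 5). Against control, it rose by 0.58 on the log2 scale in irradiated kidneys (SE 0.126, adjusted p = 0.0216). This call was lost when any of 5 libraries was left out, namely the controls 2, 3 and 4 and the irradiated libraries 1 and 3, with adjusted p-values of 0.0554 to 0.0830. A fit of the irradiated and control libraries alone lost it too, at 0.0936, and then miR-34a-5p was the only call (0.258% of all miRNAs higher). It also missed the threshold when miRNAs named after other species were tested too (adjusted p = 0.0611, 0.175% called higher), while its log2 fold change lay between 0.53 and 0.82 in all 18 alternatives.

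Counted together, miR-34b-5p and miR-34c-5p made up 203 ± 21.3 CPM in control, 305 ± 40.2 CPM in irradiated and 273 ± 19.9 CPM in lisinopril kidneys. miR-34b-5p contributed little to this sum. Its values were 5.79, 0, 4.63 and 4.84 CPM in control libraries 1 to 4, where the 0 belonged to the shallow library 2 and allows up to 3.19 CPM. They were 9.53, 4.34, 5.16 and 7.41 CPM in irradiated libraries 1 to 4 and 4.75 to 8.50 CPM (median 6.17) in lisinopril libraries. These groups overlapped, and the log2 fold change against control was 0.52 in irradiated (SE 0.360, adjusted p = 0.386) and 0.47 in lisinopril kidneys (SE 0.340, adjusted p = 0.474).

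The 3p strands of the cluster were rare. miR-34b-3p was at 5.79, 4.25, 5.40 and 5.19 CPM in control libraries 1 to 4, at 8.04, 8.06, 10.05 and 7.24 CPM in irradiated libraries 1 to 4, and at 5.92 to 8.36 CPM (median 7.19) in lisinopril libraries. miR-34c-3p was at 2.83, 1.06, 3.66 and 2.71 CPM in the controls, at 5.79, 3.72, 6.84 and 4.38 CPM in irradiated and at 3.69 to 5.54 CPM (median 4.40) in lisinopril libraries. For both strands every irradiated library lay above every control, in part only just. The lowest miR-34c-3p was at 3.72 CPM without and 3.69 CPM with the drug, against 3.66 CPM in the highest control, and the lowest miR-34b-3p with the drug was at 5.92 against 5.79 CPM. The values of control library 2 rested on 4 counts of miR-34b-3p and 1 count of miR-34c-3p. Neither strand passed the test in irradiated against control kidneys, with log2 fold changes of 0.65 (SE 0.179, adjusted p = 0.0709) and 0.82 (SE 0.262, adjusted p = 0.0916). Without irradiated library 4 both passed, at adjusted p-values of 0.0243 and 0.0409, which brought the members called to 4, while the share of all miRNAs called higher rose to 8.16%. DESeq2 called miR-34b-3p higher as well (adjusted p = 0.0435), as it did 5.83% of the 326 miRNAs to which it gave an adjusted p. The 326 did not include miR-34c-3p and miR-449a-5p.

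miR-449a-5p, the only member measured from the Mir449 locus, was the rarest. It rested on 1 to 18 counts in control, 9 to 17 in irradiated and 4 to 24 in lisinopril libraries. These were 1.06 to 2.32, 1.53 to 2.86 and 0.654 to 2.78 CPM. The groups overlapped. At this depth no difference was detectable, and the 95% interval of the fold against control ran from 0.690 to 2.12 in irradiated and from 0.765 to 2.15 in lisinopril kidneys.

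In irradiated against control kidneys 4 members, miR-34a-5p, miR-34c-5p, miR-34b-3p and miR-34c-3p, had no overlap between the groups, all higher after irradiation, and 2.63% of all tested miRNAs were higher without overlap. All 6 log2 fold changes were positive, with a median of 0.61, against a median of 0.02 over all 419 miRNAs, of which 217 were positive. The 95% interval was -0.24 to 1.29 for miR-34b-5p and -0.54 to 1.08 for miR-449a-5p. The members of the Mir34b and Mir34c cluster share a transcript, so the 6 values are not independent.

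**Figure D2:**
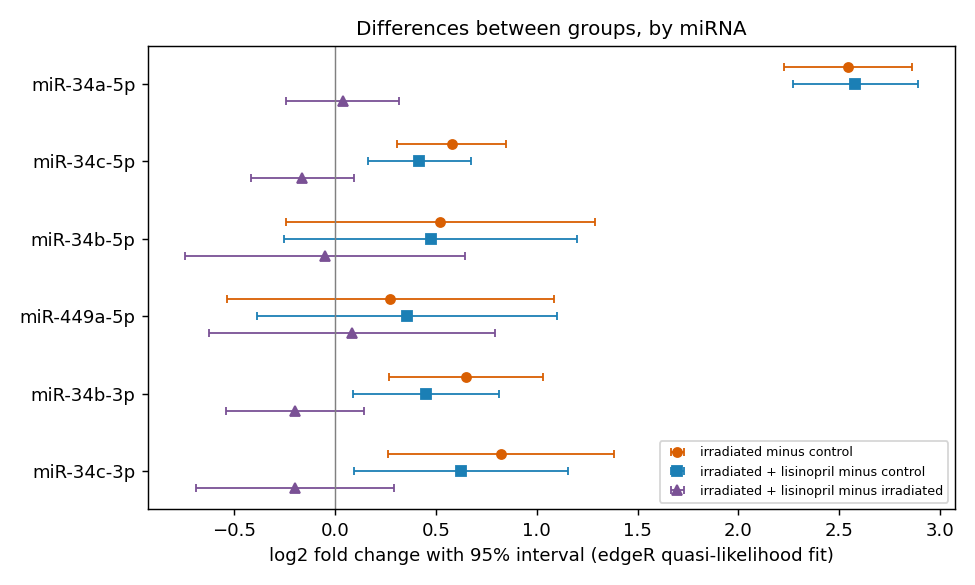
Log2 fold change of each miRNA (horizontal axis, edgeR quasi-likelihood fit) with its 95% interval for the 3 pairs of groups. miR-34a-5p stands at 2.54 and 2.58 against control, the remaining members between 0.27 and 0.82, and the intervals between the irradiated groups with and without lisinopril all include 0.

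With lisinopril, 1 of the 6 members, miR-34a-5p, was called higher than control and 0 lower, against 0.716% of all miRNAs called higher and 5.49% lower. Its rise was 2.58 on the log2 scale (SE 0.145, adjusted p = 8.19e-09). For miR-34c-5p the difference was 0.42 (SE 0.120, adjusted p = 0.0517), which just missed the threshold. It passed under 4 of 19 alternatives, with 2 members called each time. These were no abundance filter (adjusted p = 0.0388, 1.3% of all miRNAs called higher), DESeq2 (0.0200, 1.44%), a fit of these groups alone (0.0287, 4.18%) and the addition of other species' miRNAs (0.0325, 1.75%). The same 4 members as without the drug lay above every control, and 5.97% of all tested miRNAs did so. For miR-34b-3p the value was 0.45 (adjusted p = 0.122) and for miR-34c-3p 0.63 (adjusted p = 0.150). This comparison and the preceding one share their control libraries, so that their similarity is not independent evidence.

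Set directly against irradiated kidneys without the drug, those with lisinopril differed by a log2 fold change of 0.04 in miR-34a-5p (SE 0.131, adjusted p = 0.920). The 95% interval of the fold ran from 0.846 to 1.25. For miR-34c-5p the value was -0.16 (SE 0.119, adjusted p = 0.513), with an interval of 0.751-fold to 1.07-fold. The other 4 members lay between -0.20 and 0.08, and their intervals reached from 0.598-fold to 1.73-fold. edgeR called 0 of the 6 members, and 0% of all miRNAs in either direction, where 63 had an unadjusted p under 0.05, none of them a member. DESeq2 gave an adjusted p for 166 miRNAs, of which it called 2.41% higher and 4.22% lower. Only miR-34a-5p and miR-34c-5p of the members were among the 166, and neither was called. With scaling by library totals miR-34a-5p stood at -0.15 and the median of all miRNAs at -0.21, so that the sign of this small difference depended on the scaling.

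The balance between the members was followed by ratios of counts within a library, which do not depend on library scaling. They compare reads, and whether different sequences were read with equal efficiency was not tested. A ratio can therefore be compared between groups, but its value need not be the ratio of molecules. Counts were increased by 0.5 before division. The ratio of miR-34a-5p to miR-34c-5p was 0.237, 0.284, 0.285 and 0.257 in control libraries 1 to 4. In irradiated libraries 1 to 4 it was 0.974, 1.06, 0.986 and 1.09, so that the reads of miR-34a-5p had drawn level with those of miR-34c-5p. In lisinopril libraries 1 to 5 it was 0.806, 1.13, 1.30, 1.29 and 1.43, with library 1 alone under 1. The mean log2 ratios were -1.92 ± 0.13, 0.04 ± 0.08 and 0.23 ± 0.32 (SD, n = 4, 4 and 5).

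The difference in mean log2 ratio was 1.96 between irradiated and control kidneys and 2.14 between lisinopril and control kidneys. The groups did not overlap in either comparison. Two-sided exact permutation tests gave p = 0.0286 and p = 0.0159, the smallest values these group sizes allow, and both became 0.129 after Benjamini-Hochberg adjustment over the 9 ratio tests. With and without lisinopril the ratio differed by 0.19 (exact permutation test, p = 0.302, adjusted 0.543).

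**Figure D3:**
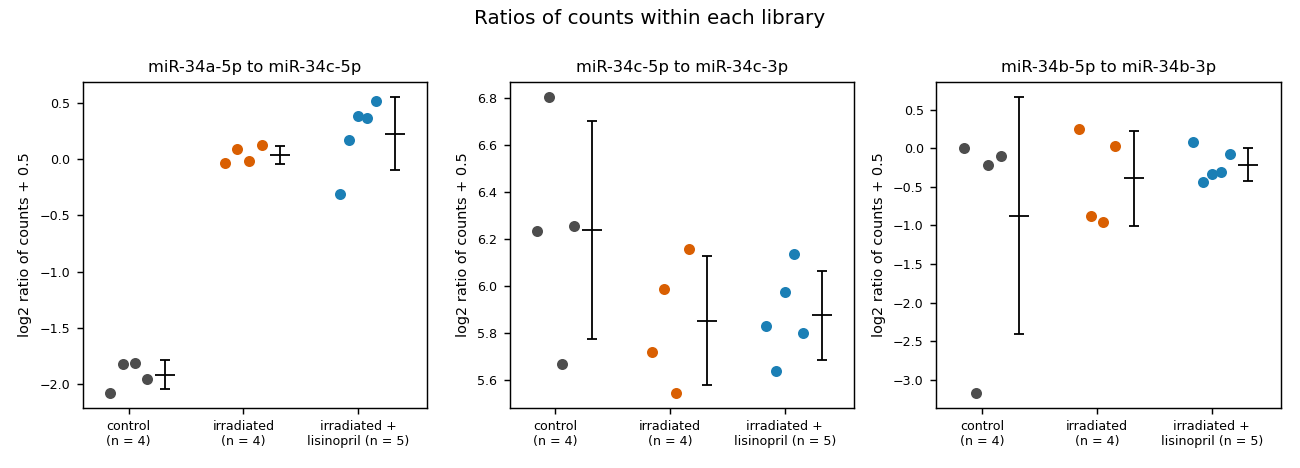
Log2 ratio of counts plus 0.5 within each library (points) with the group mean ± SD, for miR-34a-5p to miR-34c-5p and for the 5p to 3p strands of miR-34c and miR-34b. The first ratio separates controls, at most -1.81, from the irradiated libraries, at least -0.31, whereas the groups overlap in both strand ratios.

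The strand ratios of the cluster, which are ratios of reads, are given by hairpin, with no test between the hairpins. That of miR-34b rests on the reads assigned to miR-34b-5p, whose separation from the far more frequent miR-34c-5p is uncertain. For miR-34c the 5p strand exceeded the 3p strand 50.9-fold to 112-fold in control libraries, 46.7-fold to 71.4-fold in irradiated and 49.9-fold to 70.4-fold in lisinopril libraries. The highest of these values came from control library 2, which held 1 count of the 3p strand. For miR-34b both strands were found at similar read counts. The ratios were 0.858 to 1.00 in control libraries 1, 3 and 4, 0.517 to 1.18 in irradiated and 0.739 to 1.06 in lisinopril libraries. Control library 2, with 0 against 4 counts, gave 0.111.

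No strand ratio passed the test between groups. In these exact permutation tests the smallest p possible is 0.0286 for irradiated against control kidneys. It is 0.0159 for the comparisons with the lisinopril group. After adjustment over the 9 ratio tests no ratio could pass by itself, so this does not show that the ratios were equal. For miR-34c the mean log2 ratio was lower by -0.39 in irradiated than in control kidneys (two-sided exact permutation test, p = 0.171, adjusted 0.393). Without control library 3 the value was -0.58 (exact permutation test, p = 0.0571, adjusted 0.129), and without control library 2 it was -0.20. In lisinopril against control kidneys it was -0.36 with all libraries and -0.18 without control library 2. Without control library 3 it was -0.55 (exact permutation test, p = 0.0357, adjusted 0.129). Both p-values without control library 3 were the smallest those group sizes allow. For miR-34b the difference was 0.48 with all libraries and -0.28 without control library 2 (exact permutation test, adjusted p = 0.836 and 0.643). Of the 5p strands, miR-34c-5p was 32.6 to 62.5 times as frequent as miR-34b-5p in the 12 libraries with at least 10 counts of the rarer strand. Of the 3p strands, by contrast, miR-34b-3p was 1.39 to 2.17 times as frequent as miR-34c-3p. The first of these ratios rests on the uncertain division of reads between miR-34b-5p and miR-34c-5p.

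The 4 members with the seed GGCAGUG together made up 257 ± 22.7 CPM in control (SD, n = 4), 613 ± 76.9 CPM in irradiated (SD, n = 4) and 590 ± 30.6 CPM in lisinopril kidneys (SD, n = 5). By library the sums were 229 to 278, 502 to 677 and 539 to 614 CPM. As a share of all rat miRNA counts the family was at 0.0241%, 0.0679% and 0.0575% on average. These sums were not tested, because they are values over members chosen with results known. Of the difference of 356 CPM between irradiated and control means, 254 CPM came from miR-34a-5p and 99.0 CPM from miR-34c-5p. Under lisinopril 262 of 333 CPM came from miR-34a-5p, or 78.7%, against 71.3% without the drug.

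**Figure D4:**
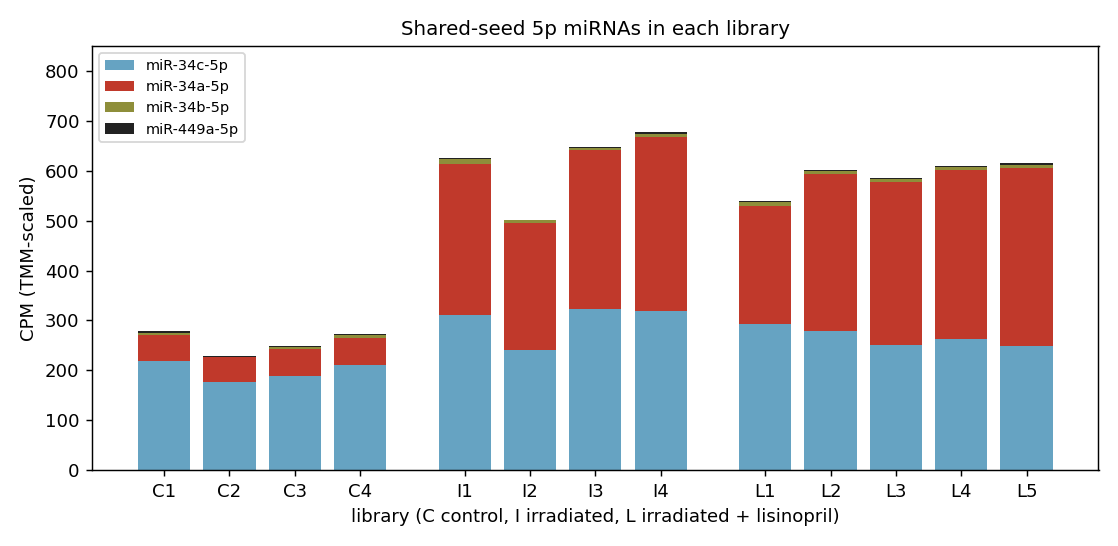
Stacked CPM (vertical axis) of the 4 miRNAs with the seed GGCAGUG in each library, C1 to C4 control, I1 to I4 irradiated and L1 to L5 irradiated plus lisinopril. miR-34c-5p makes up most of each control bar, and miR-34a-5p and miR-34c-5p make up nearly all of each irradiated bar.

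The makeup of the seed family in reads differed between irradiated and control kidneys. Like the ratios, these shares need not be those of molecules. miR-34a-5p held 18.6% to 21.9% of its counts in control, 48.5% to 51.4% in irradiated and 43.9% to 58.0% in lisinopril libraries. The highest control share, in library 2, rested on 47 of 215 counts (95% Wilson interval 16.9% to 27.9%). The lowest share under the drug, in lisinopril library 1, was 43.9% (42.2% to 45.6%). These intervals cover counting error only, since reads are not independent molecules. miR-34c-5p held 76.0% to 78.5%, 47.1% to 49.8% and 40.5% to 54.4%. miR-34b-5p and miR-449a-5p together never reached 3% of the family, with means of 1.43% and 0.580% in control, 1.07% and 0.319% in irradiated, and 1.09% and 0.336% in lisinopril libraries.

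Control library 2 had the lowest value of its group for all 6 members, but miR-34b-5p, miR-34c-3p and miR-449a-5p were under its floor of 3.19 CPM, so their order there cannot be read. Irradiated library 2 was the lowest of its group for 4 of the 6, including miR-34a-5p and miR-34c-5p, yet its ratio of miR-34a-5p to miR-34c-5p, 1.06, lay within the range of the other 3. It had the highest TMM factor of all libraries, 1.19. Lisinopril library 1 combined the lowest miR-34a-5p with the highest miR-34c-5p and miR-34b-5p of its group.

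The list of other p53-linked miRNAs held 13 that p53 activates or whose maturation it promotes, of which 12 were measured and tested. edgeR called 0 of the 12 in each of the 3 comparisons. Of all miRNAs it called 0.477% higher and 1.19% lower in irradiated against control kidneys. In lisinopril against control kidneys these shares were 0.716% and 5.49%, and between the irradiated groups 0% and 0%. At such shares 0 of 12 does not set the list apart. At an unadjusted p under 0.05 there was 1 of the 12 in irradiated against control and 1 in lisinopril against control kidneys. There were 3 in lisinopril against irradiated kidneys, and all 419 tested miRNAs gave 93, 95 and 63 in the same order. Their median log2 fold change in irradiated kidneys was -0.03, against 0.02 over all miRNAs. The smallest p-values there belonged to miR-192-5p, abundant in kidney tubules, at -0.56 on the log2 scale (SE 0.213, adjusted p = 0.134), to its cluster partner miR-194-5p (-0.31, SE 0.146, adjusted p = 0.229) and to miR-16-5p, whose processing p53 promotes (-0.32, SE 0.154, adjusted p = 0.236). miR-192-5p and miR-194-5p also belong to the kidney epithelium list, whose summed level ranged lower in irradiated than in control libraries with overlap. The part of that difference in these values was not tested. Without irradiated library 4, miR-192-5p and miR-141-3p were called lower (log2 fold changes -0.71 and -0.90, adjusted p = 0.0361 and 0.0318), as were 5.83% of all miRNAs tested. In lisinopril against irradiated kidneys miR-141-3p was then called higher (1.04, adjusted p = 0.0321) and miR-149-5p lower (-1.10, adjusted p = 0.0386), when 4.66% of all miRNAs were called higher and 6.29% lower.

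Patterns like those of the leading members were sought among the 281 other miRNAs whose mean reached 10 CPM. Likeness was the root mean square difference of log2 CPM, each taken relative to its control mean, over the 13 libraries. No miRNA came near miR-34a-5p, which had the highest log2 fold change of all tested against control. This measure grows with differences in the size of a rise, so the distances largely restate that fold change and add no separate evidence. The nearest was miR-1247-5p at 1.52 log2 units, where the median miRNA stood at 2.12, followed by miR-127-3p (1.53), miR-455-3p (1.58) and miR-214-3p (1.62). miR-1247-5p was at 32.4 to 62.2 CPM in control, 67.5 to 151 CPM in irradiated and 60.1 to 95.01 CPM in lisinopril libraries (adjusted p = 0.0709 in irradiated against control). miR-34c-5p rose less, which by this measure places it closer to most miRNAs. Its nearest were miR-503-3p at 0.229 log2 units, miR-672-5p at 0.245, miR-363-3p at 0.254 and miR-330-5p at 0.258, against a median of 0.492. Of these 8, only miR-127-3p was called in any comparison, as higher in lisinopril than in control kidneys (log2 fold change 1.07, adjusted p = 0.00107).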

How the data were processed

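Small RNA libraries from total kidney RNA were made with a TruSeq small RNA kit, per the labels' protocols. The submitters' processing notes name Trim Galore 0.2.5, Bowtie 1.1.1 and the build rn4. The method of counting was not given in the sources used here. Whole-number read counts per feature and library were deposited, of which the 460 rat mature miRNAs were used. The members, lists and tests were chosen with earlier results of these data known.

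The counts entered edgeR 4.0.16 under R 4.3.3. Features passing filterByExpr by group (419 of 460) were scaled by TMM (factors 0.787 to 1.19) and fitted with a mean per group over all 13 libraries (glmQLFit, glmQLFTest). The Benjamini-Hochberg adjustment covered the 419 miRNAs, with a threshold of 0.05. Intervals use the standard error from this fit. Log2 CPM for patterns adds a prior count of 2. The 22 pairs of replicate libraries differed beyond sampling noise, with a chi-square divided by its degrees of freedom of 89.6 to 879, and none was counted as a duplicate. Ratio tests were exact permutation tests in scipy 1.17.1. The fit and the permutation test were tested on simulated data.

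Named were all 6 members, the 3 p53-linked miRNAs with the smallest p in irradiated against control kidneys (or any called), and the 4 miRNAs nearest in pattern to miR-34a-5p and to miR-34c-5p. Alternatives were other scalings, filters, DESeq2 1.42.0, limma-voom (limma 3.58.1), a robust dispersion, fits of only the groups compared, added miRNAs of other species, other pseudocounts and leaving out each library. Predicted miRNAs were not used here.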

Additional observations from a re-analysis of the deposited data

Results flagged for a closer look

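Of 33 sets of values, each a member, ratio or family value in a group, 3 held a library set apart from the others by Dixon's test, which chance alone gives for about 1 in 20. miR-34c-5p in irradiated library 2 was at 240.3 CPM, and the next library of that group at 311 CPM. miR-449a-5p in irradiated library 4 was at 2.86 CPM, with the next at 1.74 CPM, on 17 counts. The ratio of miR-34b-5p to miR-34b-3p in control library 2 was 0.111, with the next at 0.858, and rested on 0 and 4 counts.

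Among the miRNAs named after other species, mmu-miR-449c-3p carried a name of the family. Its median was 0.818 CPM in lisinopril libraries, where the controls reached 0.515 CPM, on 3 to 14 counts there and 0 to 5 counts in the controls. The 0 belonged to control library 2 and allows up to 3.19 CPM, so that the lisinopril libraries are not shown to lie above all controls. In irradiated libraries without the drug it was at 0.187 to 0.842 CPM.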

How the results depend on the processing

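No paired analysis was possible because the labels give no replicate numbers that link animals across groups. In irradiated against control kidneys, miR-34a-5p was called higher in all 18 alternatives and the members called numbered 1 with only these groups fitted or with other species' miRNAs added, where all miRNAs gave 1 higher and 0 lower. Library totals gave 0 lower, and DESeq2 19 higher and 18 lower. Leaving out a library gave 1 to 4 members higher, 1 to 35 miRNAs higher, 0 to 25 lower and 0 to 2 p53-linked miRNAs lower, the highest without irradiated library 4.

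In lisinopril against control kidneys, miR-34a-5p was called in all 19 alternatives. 2 members were called with no filter, DESeq2, only these groups or other species' miRNAs, and all miRNAs called higher numbered 6, 6, 17 and 10. Lower were 15 from a mean of 10 CPM and 37 with other species. Leaving out a library gave 2 to 5 higher and 11 to 27 lower.

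Between the irradiated groups no member was called in the alternatives that tested it, 19 for miR-34a-5p and miR-34c-5p and 17 for the other 4, which DESeq2 and the filter at 10 CPM left out. All miRNAs called lower numbered 2 with RLE, library totals, sizes without the most abundant miRNA, a mean of 10 CPM or limma-voom, and DESeq2 gave 4 higher and 7 lower. Leaving out a library gave 0 to 20 higher, 0 to 27 lower, and 0 to 1 p53-linked miRNA in each direction. miR-34a-5p turned to -0.15 with library totals, where miR-449a-5p was at -0.11, and to -0.0027 from a mean of 10 CPM. Leaving out a library moved miR-34a-5p between -0.0507 and 0.13, miR-34b-5p between -0.22 and 0.14 and miR-449a-5p between -0.0477 and 0.29. The causes were not tested.

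The strand ratio of miR-34b turned to -0.29 in irradiated and -0.11 in lisinopril against control kidneys with no count added, and to -0.28 and -0.11 from 10 counts, both of which leave out control library 2. Leaving out a library gave -0.28 to 0.77, -0.11 to 0.95 and, between the irradiated groups, -0.0106 to 0.39 for miR-34b and -0.0795 to 0.12 for miR-34c. With all 9 irradiated libraries against the controls, a grouping chosen after seeing the data, the log2 ratio of miR-34a-5p to miR-34c-5p differed by 2.06 (exact permutation test, adjusted p = 0.00839). Its p was the smallest possible and was fixed by the separation already seen, so it adds no support. In control library 2 depth left 3 members under the floor of 3.19 CPM.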
